A study of Oncorhynchus mykiss with 23 samples.

Results

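FBXO32 (atrogin-1) and TRIM63 (MuRF1) are the ubiquitin ligases most often used as markers of muscle atrophy, and their transcripts were followed here in fast muscle of rainbow trout during a fasting and refeeding schedule. The members are the probes whose gene name in the study's heat map file is FBXO32 or TRIM63. That file was held in part (1232 probes). The part held gave 1 probe for each gene, CUST_6733_PI425536763 for FBXO32 and CUST_1441_PI425536763 for TRIM63, among 60195 non-control probes on the array. Any further probes of these names in the rest of the file are not covered. A further probe that the array design itself calls fbx32, CUST_162_PI425708691, is outside that rule and served as a second reading of the same gene symbol. The names come from database matches of expressed sequence tags, so which trout copy of each gene a probe detects was not settled.

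Ubiquitin ligases attach ubiquitin to chosen proteins and so mark them for destruction by the proteasome. FBXO32 is an F-box protein, the part of a cullin-based ligase complex that recognises the substrate, and TRIM63 is a single-chain RING ligase of the sarcomere. In mammals both genes are switched on when muscle wastes after fasting, disuse or denervation, under FoxO transcription factors that insulin-like growth factor signalling holds back.

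The fish were 1-year-old rainbow trout of a spring strain. Those of the experimental tank were deprived of food for 30 days (F0, 5 fish) and were then refed above satiation for 4 days (RF4, 5 fish), 11 days (RF11, 5 fish) or 36 days (RF36, 4 fish). Control trout (C0, 4 fish) were fed to satiation throughout in a separate tank and were taken on day 30. A comparison with C0 therefore also compares tanks and, for the refed groups, sampling days. Comparisons among F0 and the refed groups also compare sampling days, and no later control was on the arrays. The part of the sampling day was not tested. Each of the 23 arrays held RNA of 1 fish, from a slice of fast muscle below the dorsal fin, and fish of one condition shared a tank. In such tissue, fewer cells of a type and less RNA per cell cannot be told apart.

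Levels are log2 processed signals relative to the 75th percentile of the same array, so that 0 is the level of that percentile and 1 unit is a doubling. Comparisons are limma contrasts over 34200 tested probes, with Benjamini-Hochberg adjustment and a threshold of 0.05. The scanner called 44.8% to 66.8% of spots well above background, and 0 spots were saturated. Of 7 fast muscle markers, 5 were matched to a probe, and their mean levels lay above the 96.7th percentile of tested probes. Of 2 blood markers none was matched. Array C0-1 correlated with its best heat map column at 0.60 over 1232 probes, against 0.98 or more for the other 22 arrays. Several results that use C0 are therefore also given without it. When arrays were scaled by their medians instead, the median change of all probes rose from 0.0024 to 0.19 for F0 minus C0 and from -0.084 to 0.24 for RF11 minus C0. The share of called probes that were higher moved from 56.2% to 76.9% for F0 minus C0, from 58.4% to 70.0% for RF4 minus F0 and from 61.5% to 77.1% for RF11 minus RF4.

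FBXO32 was high in fasted fish and near the detection limit in refed fish. In F0 its level was 0.10 in fish 2, 3.83 in fish 3, 1.63 in fish 4, 0.99 in fish 5 and 3.50 in fish 7, a mean of 2.01 ± 1.61 (SD, n = 5). In C0 it was -2.97 in fish 1, -2.33 in fish 2, 0.091 in fish 3 and -1.24 in fish 4, a mean of -1.61 ± 1.34 (SD, n = 4). All 5 fasted fish thus lay above all 4 control fish, but only just, since the lowest fasted fish and the highest control fish differed by 0.014. The mean of F0 was 3.62 log2 units above that of C0 (SE 0.67, limma adjusted p = 0.000453). In that comparison 20.3% of tested probes passed the threshold and 7.81% were higher in F0 without overlap. Without C0-1 the difference was 3.17. Its size rests in part on background signal in C0 fish 1 and 2, and with normexp background correction it was 2.43. In C0 the probe was well above background in fish 3 and 4 but not in fish 1 and 2, whose arrays had the lowest 75th percentiles of the group (7.04 and 6.96, against 7.68 and 8.77 log2 units). The share of spots well above background was 66.8% in C0-1 and 47.6% in C0-2, against 53.4% in C0-3 and 53.8% in C0-4. The part of array signal in these readings was not tested.

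**Figure D1:**
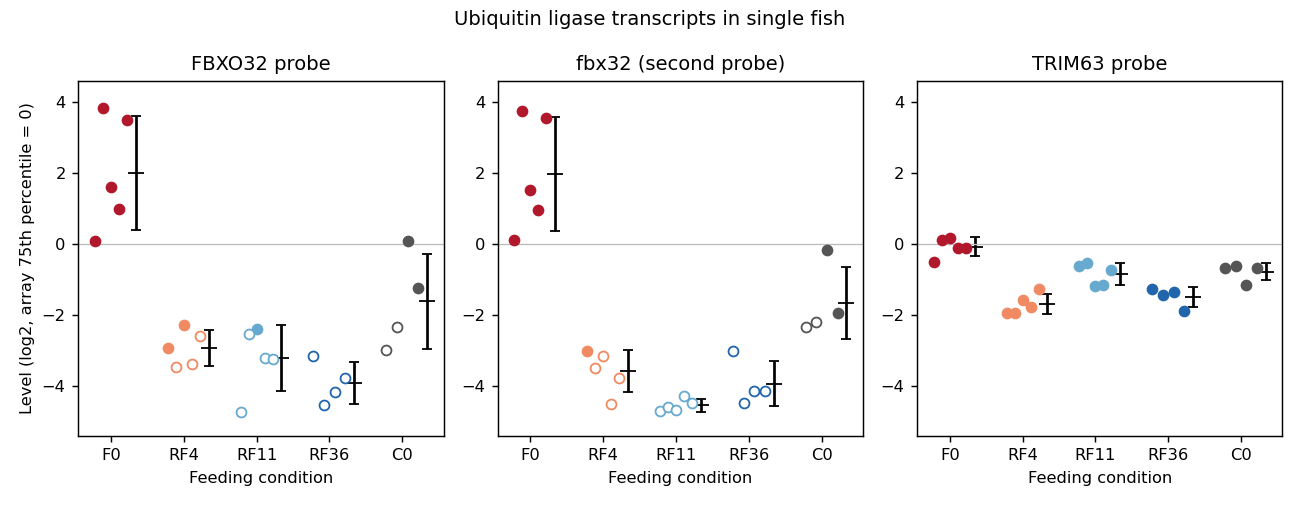
Level of the FBXO32, fbx32 and TRIM63 probes (log2, array 75th percentile = 0) in each fish, by feeding condition, with filled points well above background, open points not, and bars for the mean and SD of 4 or 5 fish. The 5 fasted fish spread from 0.10 to 3.83 for FBXO32 and from -0.49 to 0.19 for TRIM63.

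After 4 days of refeeding the FBXO32 level was -2.93 in fish 2, -3.47 in fish 3, -2.28 in fish 4, -3.39 in fish 5 and -2.60 in fish 7. Every refed fish lay at least 2.39 units below every fasted fish, and the probe was still well above background in only 2 of the 5 (fish 2 and 4). The highest RF4 fish, fish 4, was one of those measured above background. RF4 minus F0 was -4.95 (SE 0.63, limma adjusted p = 3.39e-06), where 23.3% of probes passed the threshold and 7.47% were lower without overlap. Its size rests in part on background signal, since 3 of the 5 RF4 fish were not above it, and with normexp background correction the difference was -3.32.

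The transcript stayed low thereafter. In RF11 the levels were -4.72 in fish 1, -2.53 in fish 2, -2.38 in fish 4, -3.20 in fish 5 and -3.24 in fish 6, and in RF36 they were -3.15, -4.53, -4.17 and -3.78 in fish 1 to 4. Only fish 4 of RF11 was well above background, and 0 of the 4 RF36 fish were, so at 36 days only a bound can be given. F0 exceeded RF36 by at least 19.2-fold (limma adjusted p = 7.03e-07, 32.7% of probes called), taking for each RF36 array the lowest signal among probes well above background or the probe's own signal, whichever was higher. That bound, 4.26 log2 units, holds for the processed signal only. With normexp background correction RF36 minus F0 was smaller, at -3.29. RF11 minus F0 was -5.22 with 1 of 5 RF11 fish measured above background (limma adjusted p = 1.39e-06, 27% of probes called), again without overlap, as for 8.48% of probes that were lower in RF11 and 11.9% that were lower in RF36. Among the refed groups no fold could be given for RF36 against RF4 or RF11, whose means lay under the RF36 floor, and neither passed (limma adjusted p = 0.353 and 0.605, where 17.1% and 5.92% of probes were called). RF11 and RF4 overlapped and did not pass (limma adjusted p = 0.948, 1.94% of probes called), with 3 of these 10 fish above background.

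Whether FBXO32 fell below the fed level was less clear. RF4 minus C0 and RF11 minus C0 were -1.32 and -1.60 with overlapping fish, and neither passed (limma adjusted p = 0.152 and 0.0902, where 25.4% and 20.7% of probes were called). Without C0-1 they were -1.77 and -2.05 and still did not pass (limma adjusted p = 0.0802 and 0.0507). The RF11 overlap rested on C0-1. The highest RF11 fish, RF11-4 (-2.38), lay just below the next control, C0-2 (-2.33), which was not above background. For RF36 against C0 no fold or bound can be given, with 0 of 4 RF36 fish and 2 of 4 C0 fish above background. The nearest fish, C0-1 (-2.97) and RF36-1 (-3.15), were both not above background. The signals did not overlap, as for 4.45% of probes that were lower in RF36. RF36 was called lower than C0 (limma adjusted p = 0.0347, 12.5% of probes called). That call was lost without any 1 of RF36-2, RF36-3, RF36-4, C0-3 or C0-4, when the limma adjusted p was 0.0570 to 0.102.

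The fbx32 probe gave the same picture in fasted fish. Its levels there were 0.13, 3.76, 1.52, 0.95 and 3.56 in fish 2, 3, 4, 5 and 7, each within 0.11 units of the FBXO32 probe. The order of the fasted fish was therefore the same by both probes. F0 minus C0 was 3.64 (SE 0.58, limma adjusted p = 0.000108) and RF4 minus F0 was -5.57, with 1 of 5 RF4 fish measured above background (SE 0.55, limma adjusted p = 1.35e-07). In refed fish the probes parted by up to 2.28 units, where the fbx32 probe was well above background in 1 of the RF4 fish and in none of the 9 later ones. Unlike the FBXO32 probe, it was called lower than C0 at RF4 (-1.93, limma adjusted p = 0.0186) and at RF11 (limma adjusted p = 0.00108). The RF4 call was lost in 7 of 33 alternatives, among them array-median scaling (-1.64) and normexp (-1.03, limma adjusted p = 0.0541 and 0.0617). Only 1 of 5 RF4 fish and 2 of 4 C0 fish were above background by this probe. No fold is given for RF11, since only 2 of 4 C0 fish and 0 of 5 RF11 fish were above background by this probe.

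Over all 23 fish, deviations from the group mean correlated between the FBXO32 and fbx32 probes (Pearson r = 0.86, rho = 0.77, permutation p = 1e-05 and 4e-05, the first being the smallest that 100000 resamples can give, 3e-05 and 0.00012 after adjustment over 3 relations). Resamples for all 3 relations shuffled deviations across conditions of unequal spread (FBXO32 SD 1.61 in F0 and 0.51 in RF4), so these p-values can be too small. Without F0-2 and F0-3, the fish farthest from the median, r was 0.78. The spread within F0, 13.2-fold between the lowest and the highest fish, was thus read alike by separate probes. That spread followed the slides. F0-3 and F0-7, the highest, were on slide 2, F0-4 and F0-5 on slide 3 and F0-2, the lowest, on slide 1, and the part of the slide was not tested. Within slides F0 minus C0 was 2.44, 6.63 and 1.88 for FBXO32 on slides 1, 2 and 3, and RF4 minus F0 was -2.87, -7.14 and -4.15. With the slide as a block these differences were 3.56 and -4.79.

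TRIM63 changed less than FBXO32, and its mean rose from RF4 to RF11 but was lower again in RF36. In F0 its level was -0.49 in fish 2, 0.13 in fish 3, 0.19 in fish 4, -0.11 in fish 5 and -0.094 in fish 7, a mean of -0.077 ± 0.27 (SD, n = 5). In C0 it was -0.68, -0.60, -1.14 and -0.67 in fish 1 to 4, a mean of -0.77 ± 0.25 (SD, n = 4). The groups did not overlap, with 0.11 units between the nearest fish, and unlike FBXO32 the probe was well above background on all 23 arrays. F0 exceeded C0 by 0.70 (SE 0.20, 1.62-fold, limma adjusted p = 0.0155). Without C0-3, the lowest control for TRIM63 and the highest for FBXO32, the difference was 0.57 and the limma adjusted p 0.0536. On slides 1, 2 and 3 the difference was 0.11, 0.70 and 0.94. C0-3 also had the highest signal of slow myosin of all 23 (8.97, against -1.71 to 0.92 in the other controls), the only 1 of 5 slow muscle markers matched to a probe, and the part of slow fibres in the TRIM63 level was not tested.

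TRIM63 was lower in fish refed for 4 days than in any fasted fish. The RF4 levels were -1.93, -1.93, -1.57, -1.77 and -1.26 in fish 2, 3, 4, 5 and 7. They lay at least 0.77 units below every fasted fish and 0.12 below every control. RF4 minus F0 was -1.62 (SE 0.19, 3.06-fold lower, limma adjusted p = 1.07e-06) and RF4 minus C0 was -0.92 (SE 0.20, limma adjusted p = 0.00164, with 6.14% of probes lower without overlap).

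At 11 days the TRIM63 level had come up again. It was -0.61 in fish 1, -0.54 in fish 2, -1.19 in fish 4, -1.16 in fish 5 and -0.71 in fish 6. All 5 fish were above all RF4 fish, by 0.079 units at the nearest, and fish 1 and 6 lay within the range of the controls. RF11 minus RF4 was 0.85 (SE 0.19, 1.80-fold, limma adjusted p = 0.0199), in a comparison where 1.19% of tested probes were called higher and 3.32% were higher without overlap. The call was lost without RF4-2, RF4-3, RF11-1, RF11-2 or RF11-6, when the difference was 0.77 to 0.82 and the limma adjusted p 0.0526 to 0.0639. On slides 1, 2 and 3 the difference was 0.93, 1.07 and 0.51. RF11 minus F0 was still -0.77 (SE 0.19, limma adjusted p = 0.00352), with 0.042 units between the nearest fish. RF11 minus C0 was -0.070 (95% interval -0.48 to 0.34, limma adjusted p = 0.826), and 0.26 with scaling to the array median.

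At 36 days TRIM63 was low once more, at -1.25, -1.44, -1.36 and -1.88 in fish 1 to 4. RF36 minus F0 was -1.41 (SE 0.20, limma adjusted p = 1.26e-05). All 4 fish also lay below all RF11 fish, with 0.067 units between the nearest (6.43% of probes were lower without overlap), yet RF36 minus RF11 missed the threshold (-0.64, SE 0.20, limma adjusted p = 0.0581). It passed without RF11-4, C0-1 or C0-3, at -0.73 to -0.64 and adjusted p of 0.0465 to 0.0497 in limma. With normexp background correction it was -0.25 and did not pass (adjusted p = 0.248 in limma). RF36 minus C0 passed at -0.71 (SE 0.21, limma adjusted p = 0.0288), but not without RF36-2, RF36-4, C0-1, C0-2 or C0-4, at -0.73 to -0.58 and adjusted p of 0.0521 to 0.0943 in limma. RF36 minus RF4 was 0.21 (95% interval -0.20 to 0.62, limma adjusted p = 0.530).

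**Figure D2:**
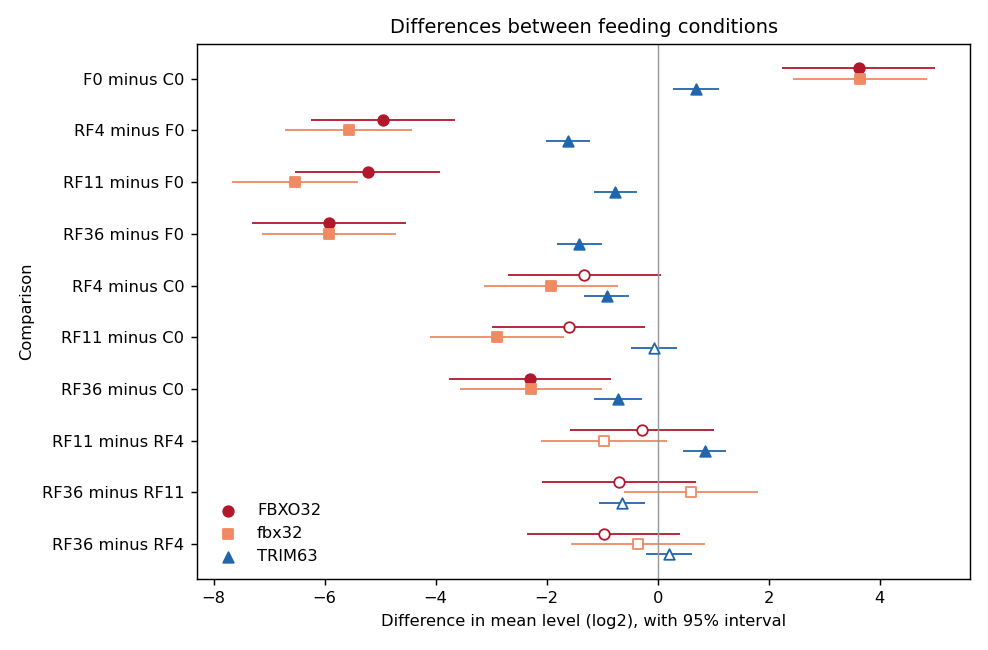
Differences in mean level between feeding conditions (log2) for the FBXO32, fbx32 and TRIM63 probes, with 95% intervals from the limma fit, filled where the adjusted p was under 0.05. TRIM63 alone passed upwards between RF4 and RF11 (0.85), while all 3 probes passed from F0 to RF4.

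FBXO32 was thus highest in F0. Its C0 mean came next, but RF4 and RF11 overlapped C0, RF11 only through C0-1, and were not called different from it. The refed groups, mostly not above background, have no order. The means of TRIM63 ran F0, C0, RF11, RF36, RF4 from highest to lowest. C0 and RF11, and RF36 and RF4, overlapped, while RF11 and RF36 did not overlap but missed the adjusted threshold. Of the 10 comparisons FBXO32 passed 5 and TRIM63 passed 7. Across the 5 conditions both genes passed the limma F test (adjusted p = 8.93e-07 and 3.39e-06), as did 45.8% of tested probes. The heat map lists probes that the study called by such a test on these fish. The calls of the members are therefore not independent evidence. The fbx32 name comes from the array design, but that probe reads the same gene symbol on the same arrays, so its calls are not independent either. A probe was tested only if 4 or more arrays of some condition had it well above background. The FBXO32 and fbx32 probes met this in F0 alone, so their entry to the tests favoured a high F0.

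Taken within each fish, which needs no scaling between arrays, the FBXO32 signal minus the TRIM63 signal averaged 2.09 ± 1.46 (SD, n = 5) in F0 and -1.24 ± 0.38 (SD, n = 5) in RF4. RF4 minus F0 was -3.33 for this difference (exact two-sided permutation p = 0.00794, the smallest that 5 against 5 fish allow, 0.0397 after adjustment over 5 comparisons), and -2.24 with normexp. With any 1 of the 10 fish left out the smallest p allowed was larger, and the adjusted exact p was 0.0794. From RF4 to RF11 the difference was -1.13 (exact p = 0.0317, adjusted 0.0794), with FBXO32 above background in 3 of these 10 fish. F0 minus C0 was 2.93 (exact p = 0.0476, adjusted 0.0794). RF36 minus RF11 and RF36 minus C0 were -0.053 and -1.58 (adjusted exact p = 0.952 and 0.143), with FBXO32 above background in none of the RF36 fish. Without C0-1, F0 minus C0 was 2.44 and RF36 minus C0 was -2.07 (adjusted exact p = 0.134 and 0.0952).

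**Figure D3:**
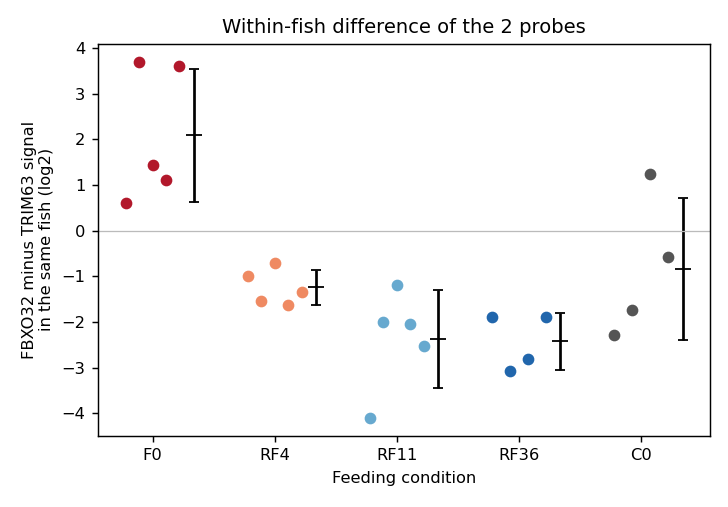
FBXO32 signal minus TRIM63 signal in the same fish (log2) by feeding condition, with the mean and SD of 4 or 5 fish. The 5 fasted fish lie between 0.60 and 3.70 and the 5 RF4 fish between -1.62 and -0.71.

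Pooled over the conditions, no relation of FBXO32 to TRIM63 within them was detected. The deviations from the group mean gave r = 0.048 and rho = 0.079 over 23 fish (permutation p = 0.826 and 0.718, the same after adjustment), and r was -0.22 without F0-2 and F0-3. For the fbx32 probe and TRIM63 r was 0.071 and rho 0.089 (permutation p = 0.747 and 0.684, adjusted 0.826 and 0.718), and -0.0087 without F0-3 and F0-7. Most FBXO32 deviations outside F0 are background signal. The probe was well above background in 5 F0, 2 RF4, 1 RF11, 0 RF36 and 2 C0 fish. The conditions also differed. F0-2 was the lowest of F0 for both genes, while C0-3 was the highest control for FBXO32 and the lowest for TRIM63. Single conditions were not tested.

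Among 596 named genes, those most like FBXO32 over the 23 fish were ZNF175, a zinc finger protein (r = 0.96), CCPG1, a receptor for autophagy of the endoplasmic reticulum (0.93), LONP2, the Lon protease of peroxisomes (0.93), ATG101, a subunit of the kinase complex that starts autophagy (0.92), and PLA2G6, a phospholipase (0.91). These coefficients are descriptions over fish that share conditions. With group means removed they were 0.79, 0.75, 0.71, 0.59 and 0.55. ZNF175 was 2.62, 4.41, 3.12, 2.41 and 3.97 in F0 fish 2, 3, 4, 5 and 7, and like FBXO32 it was highest in fish 3 and 7. The least like were STAC3, which couples excitation to contraction (r = -0.89), TMEM48, a nuclear pore protein (-0.87), and SARS, the seryl-tRNA synthetase (-0.85).

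The gene most like TRIM63 was TRIM54 (MuRF3), its close relative on the sarcomere (r = 0.93 over 23 fish and 0.78 with group means removed), and of 34199 other tested probes none was more like it. TRIM54 was 2.00 to 2.93 in the F0 fish, -0.47 to 0.92 in RF4, 0.19 to 2.00 in RF11, 0.46 to 1.20 in RF36 and 1.01 to 1.65 in C0. All F0 fish lay above all RF4 fish, RF4 minus F0 being -2.18 (SE 0.29, limma adjusted p = 6.23e-06), and F0 minus C0 was 1.30 (SE 0.31, limma adjusted p = 0.00418). RF11 minus RF4 was 0.76, with overlap, and did not pass (SE 0.29, limma adjusted p = 0.202).

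**Figure D4:**
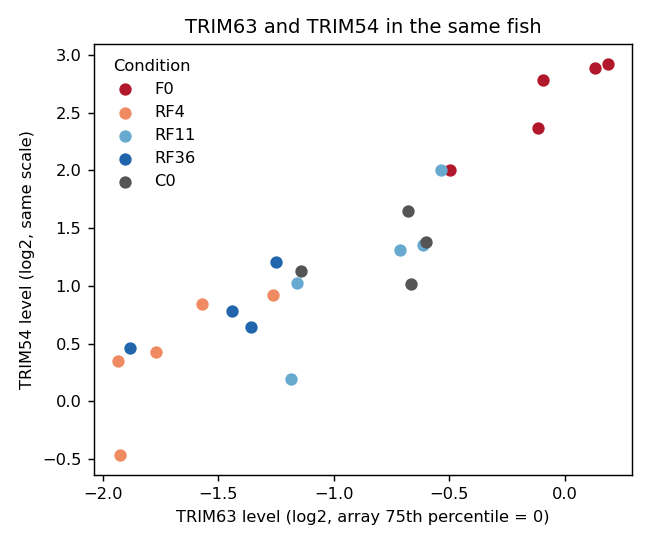
Level of TRIM54 against that of TRIM63 in the same fish (both log2, array 75th percentile = 0), coloured by feeding condition. The points run together from RF4 (TRIM54 -0.47 to 0.92) to F0 (2.00 to 2.93), and the scales of the 2 probes are not comparable in height.

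Next in likeness to TRIM63 were CAV1, the membrane protein caveolin-1 (r = 0.88), EIF4EBP3L, a translation repressor that binds the cap-binding factor (0.87), PLA1A, a phospholipase (0.86), and CLK2, a kinase of splicing factors (0.85). With group means removed their r was 0.22, 0.25, 0.23 and 0.40. Like TRIM63, CAV1, EIF4EBP3L and PLA1A passed upwards from RF4 to RF11 (0.84, 1.05 and 0.51, limma adjusted p = 0.0251, 0.00956 and 0.0380), while CLK2 did not (0.50, limma adjusted p = 0.344). These calls were lost in 10, 2 and 15 of 34 alternatives for CAV1, EIF4EBP3L and PLA1A. The genes were picked for likeness to TRIM63 over these same fish, so the shared rise is not independent of that choice. The least like were LOXL2, a collagen cross-linking oxidase, CD248, a surface protein of stromal cells, and CRELD1, with r of -0.86, -0.81 and -0.79.

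Most of the other ubiquitin ligases and partners named in the heat map file also fell from F0 to RF4. Of 38 such genes with a name there, 37 were tested. From F0 to RF4, 33 of the 37 fell and 0 rose, where 9.68% of all tested probes fell and 13.6% rose, and the list's median change was -1.60 against -0.073 over all probes. These names too come from probes selected on these fish, so the shares over all tested probes, here and below, are not a like baseline. FBXO30, UBR7, KLHL23 and MKRN2 were well above background in 5 F0 fish but in 0, 1, 0 and 1 RF4 fish. In RF11 and C0 each was so in fewer than 4 fish. Such genes could enter the tests through F0, which favours a fall from F0 or a level above C0. Among the genes with the largest changes were TRIM7 (-2.71) and TRIM39 (-2.63), both RING ligases of the TRIM family, ZNRF2, a membrane-bound RING ligase (-2.89), KBTBD12, a BTB-kelch protein (-2.46), and ASB3, a SOCS-box substrate adaptor (-2.41), with limma adjusted p from 4.81e-08 to 3.66e-05. For ZNRF2, only 2 of 5 RF4 fish were well above background, and its smallest RF4 minus F0 difference among alternatives was -1.79. KLHL23, another BTB-kelch protein, was not well above background in any RF4 fish, and F0 exceeded RF4 by at least 2.73-fold (limma adjusted p = 2.85e-07). That bound, 1.45 log2 units, holds for the processed signal only, since the smallest RF4 minus F0 difference of KLHL23 among alternatives was -1.04.

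Against fed fish, 22 of the 37 ligase genes were higher in F0 and 3 were lower, where 11.4% and 8.92% of tested probes were. Without C0-1 the count higher was again 22 and the count lower was 2. TRIM7 was 2.45 and ASB3 1.89 units higher (limma adjusted p = 1.26e-06 and 5.42e-06), whereas KLHL23, ZNRF2, KBTBD12 and TRIM39 showed 0.64, 0.63, 0.69 and -0.33 and did not pass (limma adjusted p = 0.106 to 0.659). From RF4 to RF11, 3 rose and 3 fell, where 1.19% and 0.746% of probes did. KLHL23 was among those that rose (limma adjusted p = 0.00290). No fold is given, with only 3 of 5 RF11 fish and none of the RF4 fish well above background.

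**Figure D5:**
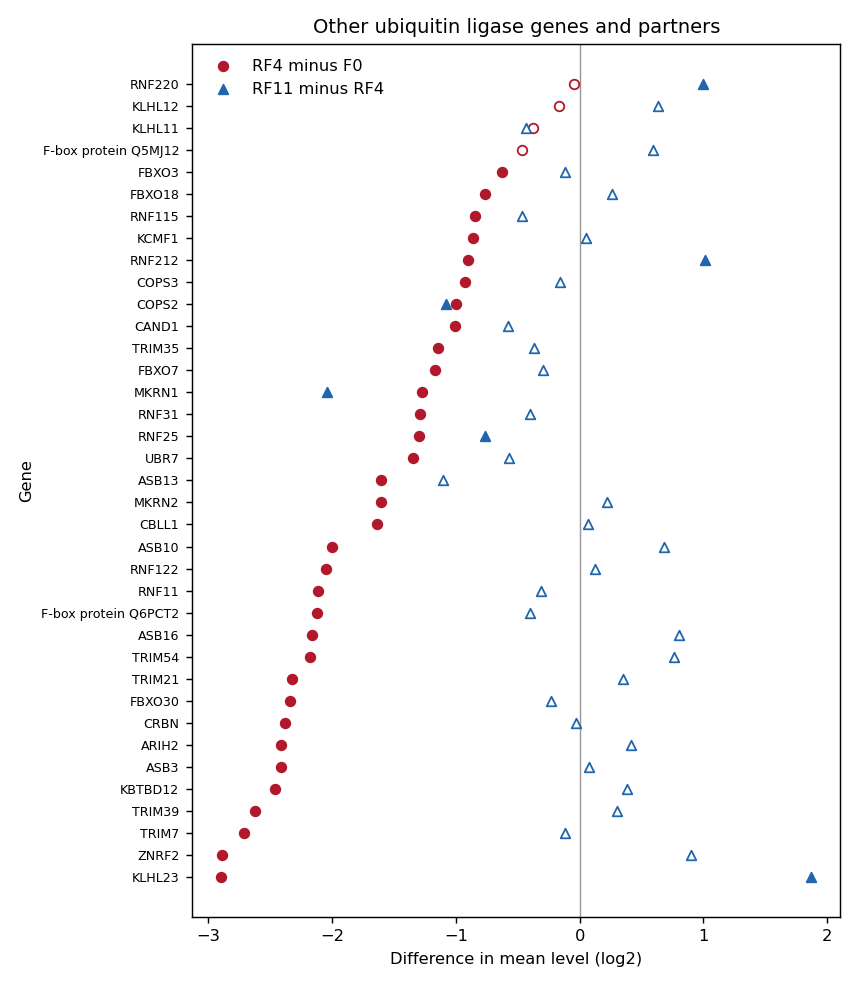
Differences in mean level (log2) of 37 other ubiquitin ligase genes and partners between RF4 and F0 (circles) and between RF11 and RF4 (triangles), filled where the limma adjusted p was under 0.05. All circles lie left of 0, of which 33 passed, while of the triangles 3 passed on each side.

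Of the genes that regulate muscle mass and its nutrient signals, 15 were matched and tested. All but 1 of their names come from probes selected on these fish, so the shares over all tested probes are not a like baseline. From F0 to RF4, 8 fell and 0 rose, where 9.68% and 13.6% of tested probes did. DDIT4L, an inhibitor of the mTOR pathway, changed by -2.79, EIF4EBP3L by -2.73 and GHR, the growth hormone receptor, by -2.62. FLCN and DEPDC5, which act in amino acid sensing upstream of mTOR complex 1, changed by -1.87 and -1.85, and TSC2, which restrains mTOR, by -1.22 (limma adjusted p from 3.00e-09 to 0.000122 for the 6 genes). Relative to C0, 8 of the 15 were higher in F0 and 2 were lower, where 11.4% and 8.92% of probes were, and without C0-1 the count higher was 6. DDIT4L was 2.62, TSC2 2.05, GHR 1.31 and EIF4EBP3L 0.65 units higher (limma adjusted p from 9.73e-07 to 0.0358), whereas DEPDC5 and FLCN, at 0.53 and 0.43, did not pass (limma adjusted p = 0.0703 and 0.0818). The EIF4EBP3L call is uncertain. Its F0 and C0 fish overlapped, and the call was lost in 11 of 34 alternatives. With 1 array left out its difference fell as low as 0.49.

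Of 9 tested genes whose proteins are reported in mammals as substrates or partners of these ligases, 1 (11.1%) rose and 1 fell from F0 to RF4, with a median change of 0.055. These shares are near those of all tested probes (13.6% and 9.68%), although all but 2 of the 9 names come from probes selected on these fish. MYOM2, a protein of the M-band, rose by 1.18 (limma adjusted p = 0.00263) and MYOZ1, of the Z-disc, changed by -2.30 (limma adjusted p = 2.41e-05). The differences of TNNI3 (a troponin I, 0.82), MYOD1 (a myogenic transcription factor, -0.60), CKM (muscle creatine kinase, -0.50) and TCAP (a titin cap protein, 0.34) did not pass (limma adjusted p = 0.0540 to 0.589). Without C0-1, 2 rose and 2 fell. In F0 minus C0, 3 of the 9 were higher and 5 lower, where 11.4% and 8.92% of probes were. The count lower was 4 without C0-1 and 2 with quantile normalization. MYOM2 stood at -2.28 and TCAP at 2.20 (limma adjusted p = 8.12e-06 and 0.000650).

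Some markers of other cells also differed in the fasted fish. The summed level of 4 of 4 matrix markers was 6.15 to 7.92 in F0 and 8.20 to 10.1 in the other groups. The 1 of 4 adipocyte markers matched, hormone-sensitive lipase, was 2.79 to 4.46 in F0 and 0.74 to 2.16 elsewhere, without overlap. The 2 of 3 leukocyte markers matched went different ways. LCP1, an actin-bundling protein, averaged 3.45 in F0, 2.06 in RF4, 1.21 in RF11, 2.90 in RF36 and 2.54 in C0, while CYBB, a subunit of the phagocyte oxidase, was lowest in F0 (-3.17, against -0.48 in RF36 and -0.75 in C0). Their sum was 2.95 to 3.95 in F0, 1.64 to 2.35 in RF4, 1.06 to 1.63 in RF11, 2.77 to 3.19 in RF36 and 2.01 to 3.00 in C0. The sum of the 5 fast muscle markers was 10.5 to 10.9 in F0 and reached 12.3 in C0, with F0 overlapping RF4, although CKM within it was 1.55 units higher in F0 than in C0. CYBB was well above background in only 2 of 5 F0 fish, 2 of 5 RF4 fish and 4 of 5 RF11 fish, while each other matched marker was so on all 23 arrays. The part of these cells in the levels of FBXO32 and TRIM63 was not tested.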

How the data were processed

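Cy3-labelled cRNA was made from total RNA of single fish and put on 1-colour Agilent arrays. The authors read the scans with Agilent Feature Extraction 10.7.3.1, whose processed signal, the deposited intensity of each spot, is background-subtracted and not scaled between arrays. The deposited table of normalised log2 values, scaled by the authors in GeneSpring, was used as an alternative only. Control spots and 145 outlier spots were left out, spots of a probe were averaged as log2 values and the 75th percentile of each array was subtracted. A probe was tested if 4 or more arrays of some condition had it well above background and none lacked a value (34200 probes). One mean per condition was fitted over 23 arrays with limma 3.58.1 in R 4.3.3, two-sided. Other tables used scipy 1.17.1, pandas 2.3.3 and numpy 2.4.6 in Python 3.11.15, and figures matplotlib 3.10.9. Replicate fish of a condition shared a tank, so p-values measure the spread between fish and not between tanks. The number of arrays limits the precision. The fit was tested on simulated data.

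Genes named in the text are the members, the fbx32 probe, the 5 most like and 3 least like named genes for each member, and from each of 3 lists (ligases, regulators, substrates) the 6 with the largest RF4 minus F0 difference. Where a gene had several named probes, the one with the highest mean was used. The members and lists were chosen with earlier results of these data known. Alternatives were array-median and quantile scaling, normexp background correction (offset 50, on median pixel intensity), the authors' log2 values, other filters, a block for the slide or for the fish number, leaving out single arrays, models of 2 groups, the methods' ANOVA and an adjusted p under 0.01. The list counts under other scalings and without C0-1 were added after the data were seen. The heat map file was held in part. Apart from probes named by the array design, such as fbx32, genes without a name in the part held were not analysed here.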

Additional observations from a re-analysis of the deposited data

Results flagged for a closer look

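Of 20 groups of fish examined for an outlying array (FBXO32, fbx32, TRIM63 and the within-fish difference, in 5 conditions), 1 stood out. The TRIM63 level of C0-3, -1.14, lay apart from the other controls by 0.86 of the group's range. Chance gives about 1 in 20. The same fish had the highest FBXO32 level of the controls (0.091).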

How the results depend on the processing

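For the members, the within-fish difference, the correlations and the F test, 767 of 845 values under alternatives kept their direction and their side of the threshold. For FBXO32 and TRIM63 these include every alternative of RF4, RF11 and RF36 against F0, of TRIM63 RF4 minus C0, and of FBXO32 F0 minus C0, whose value ranged from 2.43 to 4.19. Normexp, which lifts dim signals, gave the smallest FBXO32 differences from F0.

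FBXO32 RF36 minus C0, as measured on a probe not above background in RF36 (-2.30), did not pass with array-median scaling (-2.05), quantile normalization (-2.35), normexp (-0.86), the authors' values (-2.05), no filter, only the 2 groups, ANOVA without moderation or a threshold of 0.01 (all -2.30). It ranged from -2.75 to -1.73 with 1 array left out. TRIM63 RF36 minus C0 (main -0.71) did not pass with array-median scaling (-0.47), quantile normalization (-0.58), normexp (-0.38), the authors' values (-0.47), no filter, only the 2 groups or a threshold of 0.01 (all -0.71), and ranged from -0.84 to -0.58 with 1 array left out. TRIM63 F0 minus C0 (0.70) did not pass with only the 2 groups or at 0.01, and ranged from 0.57 to 0.80 with 1 array left out. TRIM63 RF11 minus RF4 (0.85) did not pass without a filter (adjusted p = 0.0600 in limma) or at 0.01, and ranged from 0.77 to 0.96 with 1 array left out. TRIM63 RF36 minus RF11 passed with quantile normalization (-0.68). It also passed with the filter requiring every array to be well above background and with ANOVA without moderation (both -0.64). It did not pass with array-median scaling (-0.73) or normexp (-0.25), at adjusted p of 0.0762 and 0.248 in limma. With 1 array left out it ranged from -0.73 to -0.51.

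Directions that turned belonged to differences that did not pass in the reported setting: FBXO32 RF36 minus RF11 (0.058) and RF36 minus RF4 (0.031), and fbx32 RF36 minus RF4 (0.16), under normexp. FBXO32 RF11 minus RF4 ranged from -0.49 to 0.098 with 1 array left out. TRIM63 RF11 minus C0 became 0.26 with array-median scaling, 0.26 with the authors' values and 0.095 with quantile normalization. With 1 array left out it ranged from -0.19 to 0.016. CRELD1 RF11 minus RF4 became 0.010 without RF11-1, MYOZ1 F0 minus C0 (0.21) became -0.055 without C0-3, and TRIM39 F0 minus C0 (-0.33) was -0.80 without C0-1 and 0.18 without C0-3. The within-fish difference RF36 minus RF11 became 0.31 with normexp and 1.25 with fbx32 (adjusted exact p = 0.159 and 0.0265, the second resting on a probe not above background in any RF11 or RF36 fish), and ranged from -0.49 to 0.24 with 1 array left out. RF4 minus F0 ranged from -3.70 to -2.93 with 1 array left out, and was -2.24 with normexp and -3.95 with fbx32. RF11 minus RF4 passed with normexp (-0.53) and fbx32 (-1.81, 1 of these 10 fish above background). With 1 array left out it ranged from -1.42 to -0.69. With fbx32, F0 minus C0 (2.95) and RF36 minus C0 (-1.57) also passed. With 1 array left out, the within-condition correlation of TRIM63 ranged from -0.17 to 0.24 with FBXO32 and from -0.17 to 0.27 with fbx32. The F test called 15651 probes, 10315 at 0.01.

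Counts of called probes moved with the setting: F0 minus C0 6955 (3213 with only the 2 groups), RF11 minus RF4 662 (136 at 0.01 to 1070 with normexp, 283 without RF4-3 to 1041 without C0-1), RF36 minus C0 4260 (622 with only the 2 groups, 2524 without RF36-2) and RF36 minus RF11 2023 (741 at 0.01, 1126 without RF36-1). Normexp called 13086 probes for RF4 minus C0 and 12210 for RF11 minus C0 (8688 and 7072), and array-median scaling 3389 for RF36 minus RF4 (5849). The cause was not tested. The fish numbers are not shown to pair the fish (33 same-numbered pairs, r -0.32 to 0.35, median 0.11, against -0.010 for other pairs). With the number as a replicate block, TRIM63 RF11 minus RF4 was 0.80 and did not pass (adjusted p = 0.121 in limma), FBXO32 RF11 minus RF4 became 0.37, and RF11 minus RF4 called 197 probes. The other 19 of 21 results kept their direction and side. Signal over background limits FBXO32 in refed fish.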

Other observations

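In 4 of the 5 conditions, the fish with the most slow myosin signal had the lowest TRIM63 level. These were F0-2 (slow myosin 4.85, TRIM63 -0.49), RF11-4 (5.20 and -1.19), RF36-4 (0.71 and -1.88) and C0-3 (8.97 and -1.14). In RF4 it was RF4-3 (7.30 and -1.93), the lowest but 1. TRIM54 was likewise lowest in such a fish in 4 of 5 conditions, and FBXO32 in 2 of 5. In F0 and RF36 the lead in slow myosin was small. F0-4, next in F0 with 4.76, had the highest TRIM63 level of F0 (0.19). RF36-1, next in RF36 with 0.45, had the highest of RF36 (-1.25). The pattern was noticed after the values were seen and was not tested.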
